A study of Saccharomyces cerevisiae with 5 samples.

Results

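The genes described here encode yeast proteins that bind mRNA: PUF-repeat, zinc finger, RRM, KH and La-motif proteins, the ataxin-2 homologue, the factors that carry mRNA to the bud, and the nuclear proteins that accompany mRNA from termination to export. A list of 31 genes was drawn up, without VTS1, and each was matched by gene symbol in the platform annotation, with the brightest probe set standing for the gene. Probe sets were found for 30 of them, out of 5656 genes with a single-gene probe set. NGR1, an RRM protein, had no matching probe set and was not analysed here. PUF3 was too dim for testing, which left 29 genes tested of 4950.

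Transcript levels were compared between 3 arrays of Saccharomyces cerevisiae carrying a vts1 deletion in the laboratory strain BMA64 and 2 arrays of BMA64 itself, labelled as wild type. All cells grew at steady state in SD, a synthetic glucose medium, at 30 °C and were harvested at an optical density (OD600) of 0.4. The labels give the same treatment entry, a chemical transfection with VTS1, for both groups, and do not say how the deletion was made or whether arrays came from separate cultures. The title of deletion replicate 3, unlike those of replicates 1 and 2, does not carry the word dvts1, although its source is given as the deletion strain. With no statement of separate cultures, the p-values reflect array-to-array spread alone, and that spread may be technical.

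VTS1 had signals of 19, 17.8 and 55 on the deletion arrays and 4952.3 and 5079.9 on the wild type arrays. Measured against background, it was at least 33.4-fold lower in the deletion strain. With signals raised to a floor of 50.1, its log2 change was -6.60 (limma, adjusted p = 8.46e-09). All 3 deletion arrays, deletion replicate 3 included, lay below the background level of the array, the 95th percentile of control probe sets without a yeast target. Over the probe sets tested, log2 signals correlated at 0.981 to 0.990 within groups and at 0.960 to 0.969 between them (across probe sets, which are not independent replicates). Actin's 3′ probe set, divided by its 5′ one, gave 1.51, 1.35 and 1.25 in the deletion strain and 1.34 and 1.17 in the wild type, and the part of this ratio in the results was not tested. STE2, a receptor of a cells, averaged 5076 ± 346 (SD, n = 3) in the deletion strain and 4941 ± 79.0 (SD, n = 2) in the wild type, while STE3 of alpha cells was too dim for testing.

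RNA-binding proteins decide where an mRNA goes, how long it lasts and how often it is translated. Many recognise short sequences, often in the untranslated regions, and recruit deadenylases, translation repressors or transport factors. Vts1 belongs to this class: its SAM domain of the Smaug type recognises hairpins in mRNA and brings in the CCR4-NOT deadenylase. The comparison gives the transcript levels of other mRNA-binding proteins when Vts1 is missing, not the amount or activity of the proteins.

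Among these genes, NRD1 and HRP1, which act in the ending of transcripts in the nucleus, fell in the deletion strain, and PBP1, the yeast ataxin-2, rose. The other 26 tested genes did not pass the threshold of an adjusted p of 0.05. The 3 calls make 10.3% of the 29 genes, against 7.44% of all probe sets tested (4.39% higher and 3.05% lower). By gene, at the brightest probe set, 7.72% of the 4950 tested had a call. At an unadjusted p under 0.05 there were 5 of the 29 (17.2%), against 21.4% of all probe sets. The median log2 change (deletion minus wild type) of the 29 genes was -0.09, with 9 positive and 20 negative values (69.0% negative), and that of all 4950 genes tested was -0.03 (54.6% negative). In size, the median change was 0.22 for the 29 genes and 0.20 for all genes. For 27 of the 29 genes (93.1%) the 95% interval of the change lay within 2-fold in both directions, as it did for 88.6% of all genes.

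**Figure D1:**
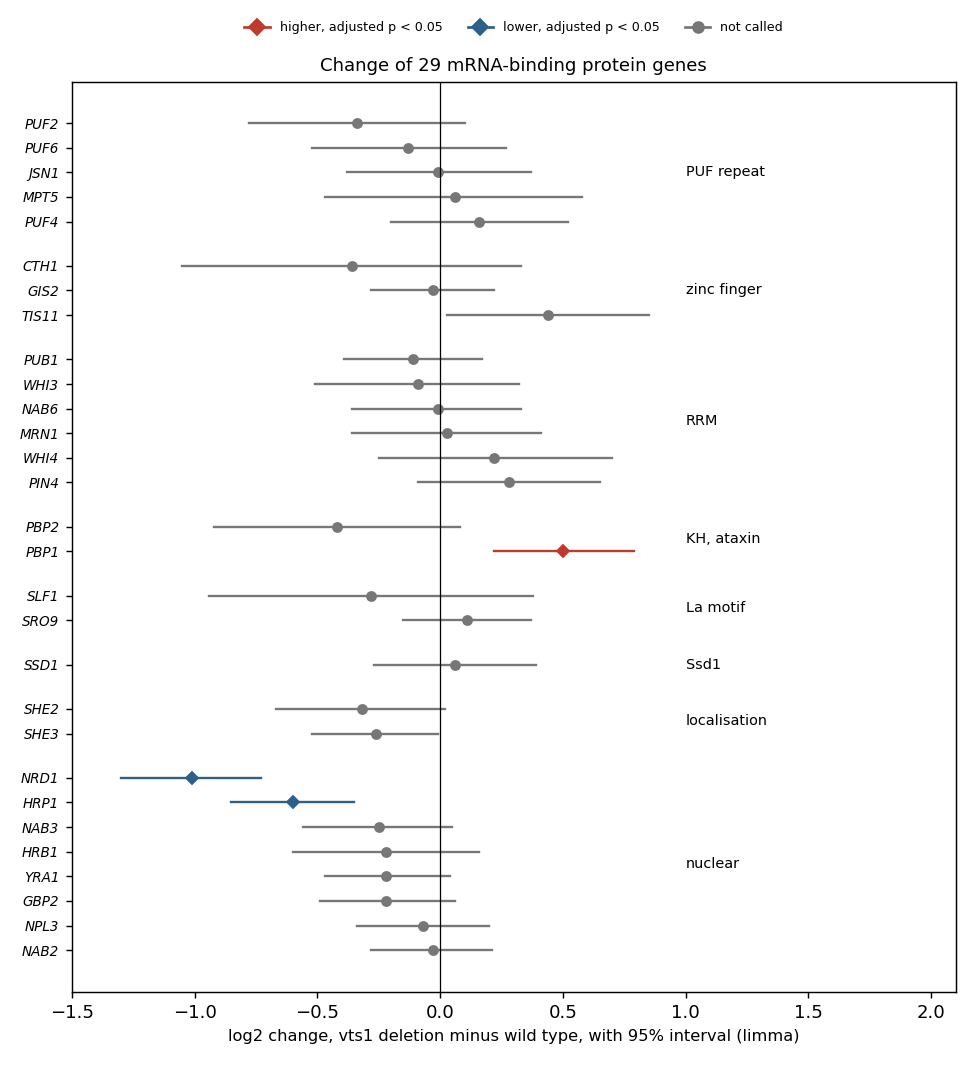
Log2 change of each of the 29 tested mRNA-binding protein genes (vts1 deletion minus wild type, n = 3 and 2 arrays), with its 95% interval, grouped by kind of protein. NRD1 and HRP1 lie left of 0 and PBP1 right of it with calls, while the other 26 genes, in grey, had none.

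Nrd1 is an RNA-binding subunit of the Nrd1-Nab3-Sen1 complex, which ends the transcription of short non-coding RNAs and of some mRNAs, its own among them. NRD1 (YNL251C) had signals of 2409.5, 2862.2 and 2696.6 on the deletion arrays, against 5124.6 and 5593.4 on the wild type arrays. All 3 deletion arrays lay near 0.49 times the wild type level, and the groups were far apart. Its log2 change was -1.01 ± 0.13 (SE, n = 3 against 2; 95% interval -1.30 to -0.73; adjusted p = 0.000400). Only 33 of the 4950 genes tested (0.667%), VTS1 included, had a decrease at least as large. Arrays of bulk RNA cannot tell fewer expressing cells from less RNA per cell. The call of NRD1 held with any 1 array left out, with a log2 change of -1.08 to -0.95.

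HRP1 (YOL123W) encodes cleavage factor IB, an RRM protein that binds UA-rich signals near the 3′ end of mRNA precursors and shuttles to the cytoplasm. Its signal was 6917, 7193.2 and 7722.1 in the deletion strain and 10790.8 and 11204.3 in the wild type. No deletion array came near the wild type level, and arrays of 1 group differed by little. The log2 change was -0.60 ± 0.12 (adjusted p = 0.00707), a level 0.66 times that of the wild type. The call held with any 1 array left out (highest adjusted p = 0.0460) and was lost without the filter on dim probe sets (adjusted p = 0.0524), without a variance trend (adjusted p = 0.0544) and against a 1.2-fold minimum (adjusted p = 0.151).

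Nab3, the RRM partner of Nrd1, had signals of 1558.5, 1481.6 and 1539.3 for its gene in the deletion strain and 1864.4 and 1776.7 in the wild type. The groups did not overlap, but the log2 change of -0.25 ± 0.14 had no call (adjusted p = 0.329; 95% interval -0.56 to 0.05). The log2 ratio of the NRD1 to the NAB3 probe set was 0.63, 0.95 and 0.81 in the deletion strain and 1.46 and 1.65 in the wild type, a difference of -0.76 (exact permutation test over arrays, two-sided p = 0.10, the smallest that 10 splits of 5 arrays can give; adjusted p = 0.280 over the 7 gene pairs compared). Ratios did not overlap between the groups in 5 of the 7 pairs, and the related genes WHI3 and WHI4 gave the same p at a difference of -0.32. No share over other gene pairs was computed. For single probe sets, 16.8% of those tested had all deletion arrays above and 21.7% all below. SEN1, the helicase of the complex, had a log2 change of -0.35 ± 0.25 at its brightest probe set (unadjusted p = 0.195, adjusted p = 0.476). Signals of that probe set were scattered on the deletion arrays, from 1479.7 to 3202.2. Its other tested probe sets gave -0.53 ± 0.39, -0.54 ± 0.23 and -0.18 ± 0.13, none of them called, and the rest were too dim. Of the other factors that join Hrp1 at the 3′ end, RNA14, RNA15, CLP1 and PCF11, none had a call, and their log2 changes lay between -0.29 and 0.09.

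**Figure D2:**
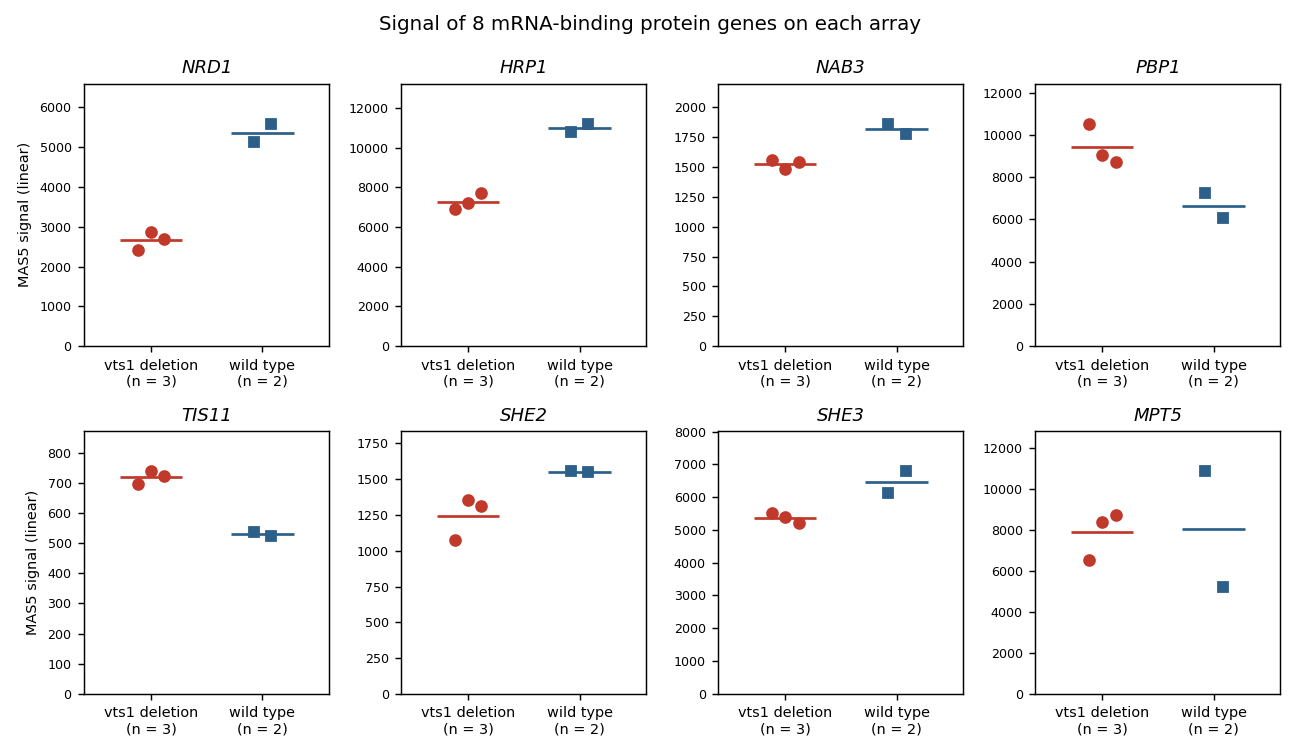
MAS5 signal (linear scale from 0) of 8 genes on each array, with vts1 deletion arrays as red circles (n = 3), wild type arrays as blue squares (n = 2) and the mean as a bar. NRD1 and HRP1 are lower and PBP1 higher in the deletion strain, whereas the 2 wild type arrays of MPT5 lie on both sides of all deletion arrays.

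The remaining nuclear genes had no call. NAB2, whose product coats poly(A) tails and limits their length, was at 8877.6, 8554.3 and 8620 in the deletion strain and 8695.4 and 9086 in the wild type. This was among the smallest differences of all members, with a log2 change of -0.03 ± 0.11 and a 95% interval of -0.28 to 0.21. YRA1, the adaptor that links mRNA to the export receptor Mex67, had signals of 11420.1, 11462.1 and 10812.4 in the deletion strain and 12209 and 13925.2 in the wild type. The groups did not overlap, and neither of its 2 probe sets had a call, with log2 changes of -0.22 ± 0.12 and -0.29 ± 0.13 (adjusted p = 0.321 and 0.221). The SR-like proteins Gbp2, Hrb1 and Npl3 package mRNA for export. GBP2 and HRB1 each had a log2 change of -0.22 (SE 0.13 and 0.17), and NPL3 had one of -0.07 ± 0.12. The 3 probe sets of NPL3 gave log2 changes of -0.07, 0.04 and -0.08, none of them called. All 8 nuclear genes had a negative log2 change, with a median of -0.22, and 4 of them had every deletion array below both wild type arrays. Of all 4950 genes 54.6% had a negative log2 change, with a median of -0.03, and 21.7% of all probe sets had every deletion array below. Among the export and THO partners measured (MEX67, MTR2, SUB2, HPR1, MFT1, THP2 and TEX1), log2 changes lay between -0.50 and 0.07, with no call.

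Pbp1 binds the poly(A)-binding protein Pab1, gathers into condensates and acts on mRNAs through partners such as Mkt1. PBP1 (YGR178C) had signals of 10533.4, 9049.9 and 8722.3 on the deletion arrays, against 7252 and 6055.5 on the wild type arrays. Every deletion array was above both wild type arrays, and deletion replicate 1 was the highest. The log2 change was 0.50 ± 0.13 (adjusted p = 0.0383), 1.42 times the wild type level, and 364 of the 4950 genes (7.35%) had an increase at least as large. The call held in 1 of the 5 fits with an array left out, and was lost without wild type replicate 2 (log2 change 0.37, adjusted p = 0.240), deletion replicate 1 (0.42, adjusted p = 0.0753), deletion replicate 2 (0.53, adjusted p = 0.110) or deletion replicate 3 (0.56, adjusted p = 0.0695). It was also lost without the filter on dim probe sets (adjusted p = 0.200), without a variance trend (adjusted p = 0.140) and against a 1.2-fold minimum (adjusted p = 0.555). The replicate number as a block lost it too (adjusted p = 0.0632). That fit gives deletion replicate 3, alone in its block, no weight in the change.

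Partners of Pbp1 had no call. MKT1, PBP4, LSM12 and PAB1 had log2 changes of -0.18 ± 0.12, 0.12 ± 0.14, 0.05 ± 0.14 and -0.11 ± 0.11. PBP2, a KH-domain protein that also binds Pbp1, was at 735.9, 522.7 and 847.5 in the deletion strain and 810.2 and 1043.6 in the wild type, with overlapping groups (log2 change -0.42 ± 0.23, adjusted p = 0.329). Deletion replicate 2 was the lowest of its 5 arrays.

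PUF proteins bind their target mRNAs through a row of repeats, each reading 1 base. None of the 5 tested genes had a call, and none had groups that did not overlap. Of all probe sets tested, 7.44% had a call, 16.8% had all deletion arrays above and 21.7% all below. With so few genes, the absence of calls says little about PUF genes as a group. MPT5, also known as Puf5, a repressor of the mRNA of the HO endonuclease, had signals of 6524.6, 8378.7 and 8720.6 in the deletion strain and 10836.6 and 5199.8 in the wild type. All deletion arrays fell between the 2 wild type arrays, which differed by 1.06 on the log2 scale. MPT5 was the only member whose wild type arrays differed by more than 2-fold, as did 63 of all 4950 genes (1.27%). Its log2 change of 0.06 ± 0.24 became 0.59 without wild type replicate 1 and -0.47 without wild type replicate 2, neither of them called.

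PUF4, which binds mRNAs of ribosome assembly factors, was at 3404.1, 4533.8 and 4103.4 in the deletion strain and 4153.5 and 3061.3 in the wild type (log2 change 0.16 ± 0.16). PUF6, a translational repressor of ASH1 mRNA, was at 1079.8, 1247.9 and 1201.4 in the deletion strain and 1532.1 and 1075.3 in the wild type (log2 change -0.13 ± 0.18). In both genes wild type replicate 1 was higher than replicate 2, and the groups overlapped. JSN1 and PUF2, related PUF proteins that bind mRNAs of membrane proteins, had log2 changes of -0.01 ± 0.17 and -0.34 ± 0.20 (adjusted p = 0.987 and 0.375). For PUF2 the signals were 758.2, 1128.7 and 1054.9 in the deletion strain and 1086.9 and 1368.6 in the wild type, with deletion replicate 1 the lowest. PUF3, which binds mRNAs of mitochondrial proteins, had signals of 168.4, 85.6 and 114.2 in the deletion strain and 125.4 and 98.1 in the wild type. It rose above the background level of the array on 1 deletion array and 1 wild type array, so no change is given for it.

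Among the zinc finger genes, TIS11 and CTH1 encode a pair of related proteins that bind AU-rich elements in mRNAs of iron-using proteins when iron is short. TIS11 (Cth2) had signals of 697.5, 738.5 and 722.2 in the deletion strain and 537.2 and 523.1 in the wild type. Its groups were tight and clearly apart, yet the log2 change of 0.44 ± 0.19 had no call (unadjusted p = 0.0370, adjusted p = 0.202). Its SE in the fit draws partly on other probe sets of like signal. Of all probe sets tested, 16.8% had all deletion arrays above. Over all alternatives the change of TIS11 stayed between 0.42 and 0.46, without a call. CTH1 was dimmer and more scattered, at 418, 209.5 and 327.7 in the deletion strain and 379.4 and 405.5 in the wild type (log2 change -0.36 ± 0.32). The log2 ratio of TIS11 to CTH1 was 0.74, 1.82 and 1.14 in the deletion strain and 0.50 and 0.37 in the wild type. The groups differed by 0.80 (exact permutation test, two-sided p = 0.20, adjusted p = 0.280), and 0.10 is the smallest p possible. They did not overlap, as in 5 of the 7 pairs. Deletion replicate 2, where CTH1 was lowest, gave the highest ratio. GIS2, a zinc knuckle protein related to human CNBP, varied little, at 13020.7, 12684.4 and 13154.9 in the deletion strain and 12309 and 14167.9 in the wild type (log2 change -0.03 ± 0.12).

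The cytoplasmic RRM proteins measured numbered 6, and none had a call or groups that did not overlap at the brightest probe set. Over all probe sets tested, 7.44% had a call, 16.8% had all deletion arrays above and 21.7% all below. Whi3 holds back the mRNA of the G1 cyclin Cln3. WHI3 had signals of 596.4, 654.8 and 700.4 in the deletion strain and 685.2 and 701.3 in the wild type (log2 change -0.09 ± 0.19), and its paralog WHI4 had 611.7, 670.6 and 808 in the deletion strain and 508 and 692.3 in the wild type (0.22 ± 0.22). PUB1, a poly(U)-binding protein found in stress granules, had a log2 change of -0.11 ± 0.13. PIN4, with a role in the cell cycle and DNA damage response, was at 2219.7, 2292.9 and 2570.2 in the deletion strain and 2339.6 and 1601.8 in the wild type. Wild type replicate 2 was the one low array of PIN4, and the log2 change was 0.28 ± 0.17 (adjusted p = 0.373). MRN1 had nearly equal wild type signals, 937.6 and 939.4, inside the range of its deletion signals, 1035, 813.8 and 1040.5 (log2 change 0.03 ± 0.18).

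NAB6, which binds mRNAs of cell wall proteins, had 3 probe sets that gave different values. Its brightest had a log2 change of -0.01 ± 0.16 and another one of -0.07 ± 0.20, while the dimmest was at 481.5, 399.1 and 727.2 in the deletion strain and 705.8 and 875.2 in the wild type, a log2 change of -0.60 ± 0.26 (adjusted p = 0.207). Deletion replicate 3 overlapped the wild type at that probe set, and none of the 3 had a call.

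La-motif and Ssd1 genes also had no call. SRO9, a La-related protein of translating ribosomes, was at 6306.8, 6792.6 and 7283 in the deletion strain and 6209.6 and 6392.7 in the wild type (log2 change 0.11 ± 0.12), and its relative SLF1, dim at 221.6 to 270.9 in the deletion strain and 267.7 to 323 in the wild type, had a log2 change of -0.28 ± 0.30. SSD1 encodes a protein related to RNase II that represses the translation of cell wall mRNAs. Its signal was 2313.1, 2433.3 and 3054.2 in the deletion strain and 2546.8 and 2409.4 in the wild type (log2 change 0.06 ± 0.15). Deletion replicate 3 was the highest array for SSD1, and the groups overlapped.

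She2 binds mRNAs bound for the bud tip and She3 ties them to the myosin Myo4. SHE2 was at 1072, 1351.5 and 1314.6 in the deletion strain and 1554.7 and 1548.6 in the wild type. SHE3 was at 5506.1, 5408.8 and 5224.4 in the deletion strain and 6140.7 and 6787.8 in the wild type. In both genes every deletion array lay below both wild type arrays, with log2 changes of -0.32 ± 0.16 and -0.26 ± 0.12, but neither had a call (adjusted p = 0.272 and 0.223). MYO4 had a log2 change of -0.10 ± 0.14. Over the 29 genes, 6 (20.7%) had all deletion arrays below and 2 (6.90%) all above, against 21.7% and 16.8% of all probe sets tested.

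The same arrays held 41 known target mRNAs, bound by these proteins or, for the 3 of Nrd1 and Nab3, under their control. Of the 41, 5 rose and 4 fell, with a median log2 change of 0.00. These 9 calls make 22.0% of the 41, against 7.44% of all probe sets tested (4.39% higher and 3.05% lower). The list was drawn up with earlier results of these data known, so its share is a description. Of 9 mRNAs bound by Cth2 or Cth1, 4 rose and 1 fell, beside the same 4.39% and 3.05% of all probe sets. ACO1, aconitase, was at 16207.2, 18711.3 and 18540.1 in the deletion strain and 7180 and 8976.6 in the wild type (log2 change 1.15 ± 0.13, adjusted p = 0.000160), a call lost without the filter on dim probe sets. SDH4, of succinate dehydrogenase, rose by 0.62 ± 0.12 and LEU1, of leucine synthesis, fell by 0.51 ± 0.12 (adjusted p = 0.00727 and 0.0232). The call of SDH4 was lost without wild type replicate 2 (adjusted p = 0.0568), and that of LEU1 without deletion replicate 2 or 3 (adjusted p = 0.0849 and 0.0530) or wild type replicate 1 (adjusted p = 0.124). Keeping the dim probe sets in also lost both calls (adjusted p = 0.0577 for SDH4 and 0.121 for LEU1). The replicate block (adjusted p = 0.0563 and 0.0858) and a 1.2-fold minimum (0.135 and 0.440) did the same. Dropping the variance trend lost them as well (adjusted p = 0.0505 and 0.108). SDH4 kept its call in 11 of 16 alternatives and LEU1 in 9. The other 2 that rose, CCP1 and WTM1, were named after their values were seen. ACO1 and SDH4 are also enzymes of the tricarboxylic acid cycle. TIS11 and CTH1 themselves had no call.

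**Figure D3:**
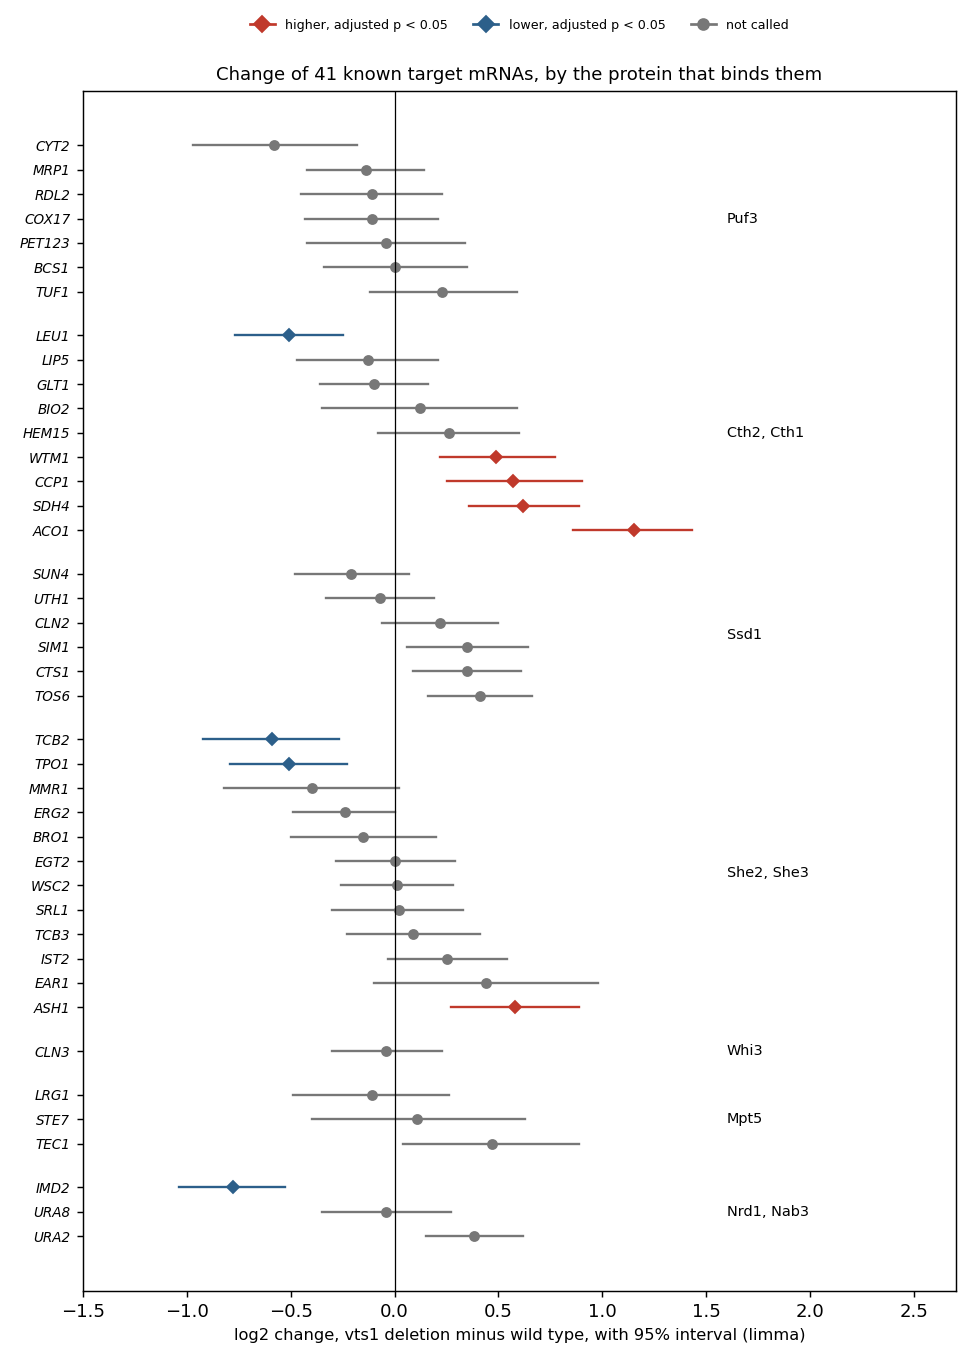
Log2 change (vts1 deletion minus wild type, n = 3 and 2 arrays) with its 95% interval for 41 known target mRNAs, grouped by the protein that binds or controls them. Calls are seen among the targets of Cth2 and Cth1, of She2 and She3, and for IMD2, while none of the targets of Puf3, Ssd1, Whi3 or Mpt5 had one.

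Of 12 mRNAs carried by She2 and She3, 1 rose and 2 fell, where 4.39% of all probe sets rose and 3.05% fell. ASH1, a repressor made in daughter cells and the best known cargo, was at 7462.4, 8743.4 and 8488.1 in the deletion strain and 4807 and 6294.8 in the wild type (log2 change 0.58 ± 0.14, adjusted p = 0.0281). The call of ASH1 was lost without wild type replicate 1 (log2 change 0.38, adjusted p = 0.171), deletion replicate 2 (0.53, adjusted p = 0.122) or deletion replicate 3 (0.55, adjusted p = 0.104). TPO1, a polyamine exporter, had a log2 change of -0.51 ± 0.13 (adjusted p = 0.0312). TCB2, a tricalbin of the cell cortex (named after its value was seen), had one of -0.59 ± 0.15 (adjusted p = 0.0326). Keeping the dim probe sets in lost the calls of ASH1 and TPO1 (adjusted p = 0.204 and 0.0979). The replicate block (adjusted p = 0.0710 for each) and a 1.2-fold minimum (0.358 and 0.499) did the same. Dropping the variance trend lost both as well (adjusted p = 0.119 and 0.0993). ASH1 kept its call in 9 of 16 alternatives and TPO1 in 8. TPO1 lost its call with any 1 array but deletion replicate 3 left out (adjusted p = 0.0531 to 0.144).

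IMD2, whose transcription is cut short by the Nrd1 complex, was at 8592.9, 9224.2 and 8111 in the deletion strain and 14822.4 and 14917.1 in the wild type, a log2 change of -0.78 ± 0.12 (adjusted p = 0.000970). Its 3 probe sets all fell, but they may also read the closely similar sequences of other IMD genes. URA2, of pyrimidine synthesis and also under Nrd1, was at 21303.5, 21332.5 and 21630 in the deletion strain and 16370.5 and 16508.5 in the wild type. Its groups were apart and its log2 change of 0.38 ± 0.11 just missed the threshold (adjusted p = 0.0543), while URA8 had one of -0.04 ± 0.14. The mRNAs of Puf3 (7) ranged from -0.58 to 0.23 and those of Ssd1 (6) from -0.21 to 0.41. Neither set had a call by limma with the settings reported, and TOS6 of the Ssd1 set just missed the threshold (adjusted p = 0.0534). Before adjustment, limma gave p below 0.05 to 1 mRNA of Puf3 and 3 of Ssd1, as it did to 21.4% of all probe sets. Sets this small say little about a difference from that share. CLN3, the mRNA held by Whi3, had a log2 change of -0.04 ± 0.12. The 5 target mRNAs that rose became 3 without wild type replicate 2 and 2 without deletion replicate 2 or 3. The 4 that fell became 1 without wild type replicate 1 or deletion replicate 2, and 2 without wild type replicate 2 or deletion replicate 3.

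Proteins that work with the members, 23 of them tested, had 0 calls by limma, and 1 at an unadjusted p under 0.05, against 7.44% and 21.4% of all probe sets. Without wild type replicate 1, 1 of them rose. Of 10 other mRNA-binding proteins tested, RIE1 rose and LHP1 fell, 1 gene in each direction where 4.39% of all probe sets rose and 3.05% fell. RIE1, an RRM protein of stress granules, was at 1672.1, 1639.6 and 1502.1 in the deletion strain and 932.2 and 701 in the wild type (log2 change 0.99 ± 0.17, adjusted p = 0.00314). LHP1, the yeast La protein, was at 3372, 3763.1 and 3189.2 in the deletion strain and 4791.5 and 4903.9 in the wild type (log2 change -0.50 ± 0.13, adjusted p = 0.0338). The RIE1 call held with any 1 array left out but was lost without the filter on dim probe sets (adjusted p = 0.0901). That of LHP1 was lost with wild type replicate 1 or 2, or deletion replicate 1, 2 or 3, left out. It was also lost under quantile normalization, without that filter, without a variance trend, with the replicate block and against a 1.2-fold minimum. The LHP1 call held in 6 of 16 alternatives. Without deletion replicate 1, 2 genes of this list rose.

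**Figure D4:**
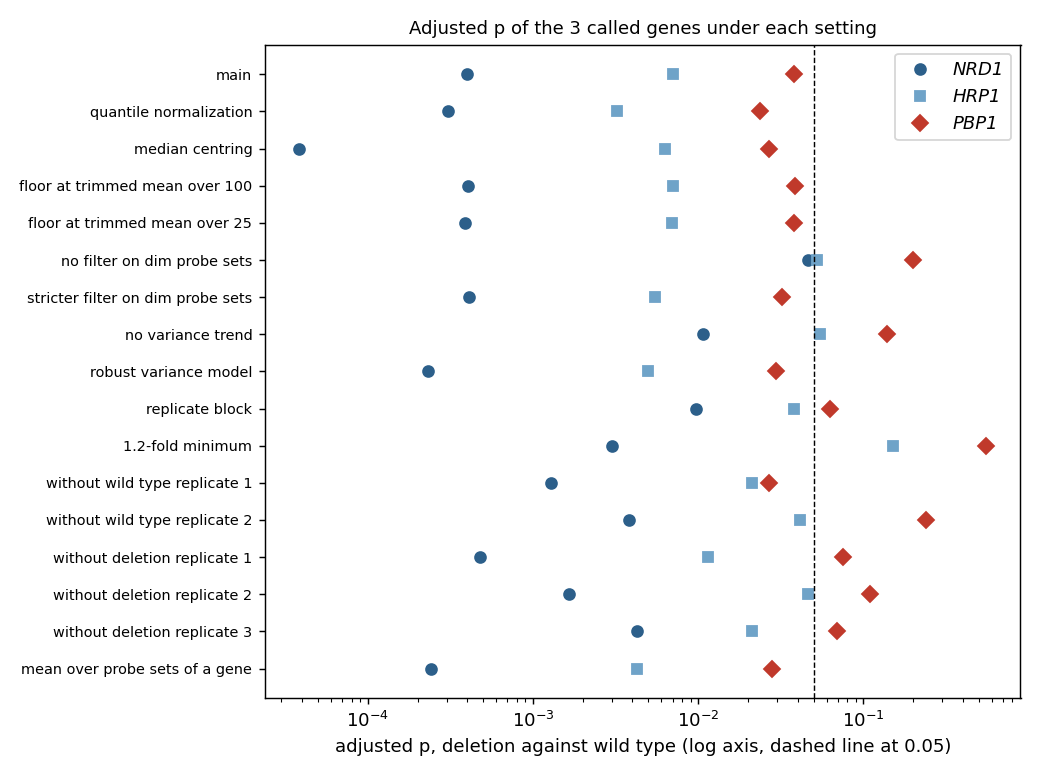
Adjusted p (log axis) of NRD1, HRP1 and PBP1 with the settings as reported (top line) and under 16 alternatives, with a dashed line at 0.05. NRD1 stayed below the line in all 16, HRP1 in 13 and PBP1 in 8. These 16 are not independent checks. Changed floors and the mean over probe sets leave the values of these genes as they were. The replicate block gives the same log2 changes as the fit without deletion replicate 3.

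Called or not, the 3 genes kept their direction under other normalizations, with the replicate block and with any 1 array left out. Floor, filter, variance model, minimum change and probe set choice could not move their log2 changes. Each gene has 1 probe set, with signals far above the floor. NRD1 had a log2 change of -1.08 to -0.95, HRP1 of -0.64 to -0.56 and PBP1 of 0.37 to 0.63 over 16 alternatives. The other 26 genes had no call under any of them. A missing call does not show that a gene was unchanged, and the 95% intervals of CTH1 (-1.05 to 0.33) and SLF1 (-0.94 to 0.38) were among the widest.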

How the data were processed

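The authors deposited MAS5 signal intensity values, linear and per probe set, from 5 single-colour arrays. MAS5, per the submitters' processing notes, makes 1 value of each probe set (version: not given in the sources used here). Its trimmed means (2% off each end) were 2502.47 to 2502.68, so arrays were already scaled and a shift in total mRNA would go unseen. The 60 controls were left out of 9335 probe sets. Signals under 50.1 were raised to it, log2 was taken, and the 6294 probe sets with a mean of at least 250.3 were tested with limma 3.58.1 in R 4.3.3 (group as the only term, variance trend, two-sided, Benjamini-Hochberg over all probe sets, threshold 0.05). Errors of log2 changes are standard errors of the fit, and those of signals are SD. An array's background was the 95th percentile of 28 controls without a yeast target, 98.0 to 166.7. VTS1's fold is a bound against it. The number of arrays limits precision.

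Members and lists were chosen with earlier results of these data known. Text names all members, VTS1 and, per list, up to 6 called genes with the smallest p. Other list genes named were chosen after their values were seen. The procedure was tested on simulated data, in 10 simulations with 200 changed probe sets each. It called 23.0% of the 1.5-fold and 69.4% of the 2-fold changes. Of its calls, 5.03% were false. Alternatives covered normalization, floor, filter, variance model, minimum change, replicate block, probe set choice and arrays left out. A planned promoter motif search was not run, because no sequence was used here.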

Additional observations from a re-analysis of the deposited data

How the results depend on the processing

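Of 462 comparisons of a member's value between the settings reported and an alternative, 451 lay on the same side of the threshold. The 11 lost calls were those of PBP1 and HRP1. Members without a call changed sign in 21 comparisons, in 10 genes. Without the filter on dim probe sets, 0 members rose and 1 fell, with 54 and 51 of all probe sets, 1 and 1 of the target mRNAs and 0 and 0 of the other mRNA-binding proteins. Without a variance trend, 0 members rose and 1 fell, and 106 of all probe sets fell, with 1 and 1 of the targets and 0 other binders lower. Against a 1.2-fold minimum, 0 members rose and 1 fell, with 146 and 54 of all probe sets, 1 and 1 of the targets and 0 other binders lower. Quantile normalization left 0 other binders lower, and median centring gave 2 higher. The cause of these shifts was not tested. With 1 array left out, members higher numbered 0 to 1 and lower 2 to 2, all probe sets 175 to 318 and 95 to 165, targets 2 to 5 and 1 to 3, partners 0 to 1 and 0 to 0, and other binders 1 to 2 and 0 to 0. The arrays share only a replicate number (deviations correlated at -0.07 for each pair). With the replicate number as a block, 0 members rose, and NRD1 and HRP1 kept their calls. Of all probe sets, 149 rose and 69 fell in that fit, with 1 and 1 of the targets and 0 other binders lower. Deletion replicate 3 is alone in its block, so the log2 changes equal those of the fit without it. Precision is limited by the 5 arrays: the median SE of the log2 change was 0.16 over the 29 members tested.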
